A study of Homo sapiens with 8 samples.

Results

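The activator protein 1 (AP-1) transcription factors and their immediate early companions were examined in 2 kidney cancer cell lines. The set held 10 genes of 18693 with a named protein-coding RefSeq entry (NM entry), namely the Jun family (JUN, JUNB, JUND), the Fos family (FOS, FOSB, FOSL1, FOSL2), ATF3, EGR1 and IER3. Members were chosen by name. The level of a gene was the sum of its NM entries in FPKM, the fragments mapped to a transcript relative to its length and to the mapped reads of the library, a unit that corrects for length, so that levels of different genes can be set side by side.

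The study depleted SLINKY, a long intergenic noncoding RNA studied as a marker of outcome in clear cell renal cell carcinoma (ccRCC), and measured RNA by single-end sequencing with reads of 36 bp. A498 and 786-O, established ccRCC lines, were each transfected with non-targeting control siRNA (NTC, 2 libraries), with SLINKY siRNA 1 (1 library) or with SLINKY siRNA 2 (1 library), which gives 8 libraries. All siRNAs were used at 50 nM by lipofection for 16 h per the labels, while the methods of the study give a later time for RNA isolation. The labels call every siRNA a pool, whereas the methods describe 2 single designs against the first exon of SLINKY. A498 was grown in DMEM and 786-O in RPMI medium, both with serum, so cell line and medium cannot be told apart. Nothing says that the NTC libraries came from separate cultures, and the p-values then measure only the spread between these libraries. Each siRNA had 1 library a line and both siRNAs were set against the same NTC libraries, so the siRNA comparisons are not independent of each other.

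AP-1 is a dimer of basic leucine zipper proteins, in which a Jun protein pairs with another Jun protein, a Fos protein or a member of the ATF family, and binds the short palindrome known as the TPA response element. Mitogens, serum and stress switch on FOS, FOSB, JUN, EGR1, ATF3 and IER3 within minutes through MAP kinases and serum response factor, without new protein synthesis, after which the transcripts decay quickly. In epithelial tumours AP-1 proteins are best known for driving cyclin D1, matrix proteases and growth factor ligands, and FOSL1 is the Fos protein that is often abundant in invasive, mesenchymal-like cells.

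SLINKY itself stood at 14.6 and 16.1 FPKM in the A498 NTC libraries, 1.64 with siRNA 1 and 3.01 with siRNA 2, and at 1.45 and 1.39 in the 786-O NTC libraries, 0.0569 with siRNA 1 and 0.594 with siRNA 2. Against the NTC mean of the same line the level was lower by 89.3% and 80.3% in A498 and by 96.0% and 58.2% in 786-O. In 786-O the level was low even in the NTC libraries, so the percentages there are less certain. Estimated depth ranged from 25135352 to 64706683 mapped reads, and the 10 most abundant genes held 8.18% to 9.43% of the summed FPKM. The renal epithelial marker PAX8 lay between 39.2 and 48.1 FPKM in all libraries, and 8 of the 9 renal or ccRCC markers that could be read reached a mean of 1 FPKM. The exception was CA9, a hypoxia-induced carbonic anhydrase, which lay between 0.293 and 0.559 FPKM in A498 and at or below 0.0229 in 786-O. None of 5 leukocyte, 4 endothelial and 3 erythroid markers exceeded 0.494 FPKM, and PTPRC and CD3E were listed at 0 in every library.

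Before the levels, a fixed window around the start sites was read for the family's own binding motifs. RefSeq promoter entries (GRCh38.p14, 250 bases before to 50 after a start) were found for 8 of the 10 members, 9 promoters in all, with none used for FOSL1 and IER3. Both strands were searched for 5 motifs: TGANTCA, the TPA response element that AP-1 binds; TGACNTCA, the cyclic AMP response element with an open middle base, which Jun and ATF dimers prefer; GCGNGGGCG, the EGR1 site; the CArG box, to which serum response factor binds; and the TATA sequence TATAAA. The promoters below are those of members that hold at least 1 of the first 4 motifs. Letters in capitals mark the motif, and positions count from the start site.
JUN promoter, GRCh38.p14, chr1:58783998-58784297, minus strand: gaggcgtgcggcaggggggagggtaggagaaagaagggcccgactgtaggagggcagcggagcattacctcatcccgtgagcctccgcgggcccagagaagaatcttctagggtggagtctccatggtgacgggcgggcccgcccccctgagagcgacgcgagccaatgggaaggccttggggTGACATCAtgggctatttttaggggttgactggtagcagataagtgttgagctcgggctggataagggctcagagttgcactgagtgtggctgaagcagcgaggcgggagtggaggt
JUND promoter, GRCh38.p14, chr19:18281573-18281872, minus strand: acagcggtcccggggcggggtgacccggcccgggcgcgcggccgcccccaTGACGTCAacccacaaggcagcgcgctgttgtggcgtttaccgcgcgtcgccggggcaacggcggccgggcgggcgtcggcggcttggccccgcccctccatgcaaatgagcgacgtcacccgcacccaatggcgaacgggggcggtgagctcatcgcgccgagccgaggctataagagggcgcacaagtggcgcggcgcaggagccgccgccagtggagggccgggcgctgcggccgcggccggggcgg
FOSL2 promoter, GRCh38.p14, chr2:28392608-28392907, plus strand: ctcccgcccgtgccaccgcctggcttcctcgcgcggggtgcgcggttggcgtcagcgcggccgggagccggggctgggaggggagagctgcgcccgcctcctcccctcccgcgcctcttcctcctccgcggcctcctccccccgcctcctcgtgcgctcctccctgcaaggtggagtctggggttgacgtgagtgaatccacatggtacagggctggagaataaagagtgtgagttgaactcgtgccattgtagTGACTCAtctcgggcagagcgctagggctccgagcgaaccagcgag
ATF3 promoter, GRCh38.p14, chr1:212565157-212565456, plus strand: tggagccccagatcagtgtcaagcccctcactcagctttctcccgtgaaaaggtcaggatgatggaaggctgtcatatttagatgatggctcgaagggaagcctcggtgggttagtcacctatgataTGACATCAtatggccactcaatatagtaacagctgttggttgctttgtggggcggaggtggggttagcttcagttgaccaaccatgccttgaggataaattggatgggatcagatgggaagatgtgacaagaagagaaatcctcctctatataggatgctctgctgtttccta
EGR1 promoter, GRCh38.p14, chr5:138465229-138465528, plus strand: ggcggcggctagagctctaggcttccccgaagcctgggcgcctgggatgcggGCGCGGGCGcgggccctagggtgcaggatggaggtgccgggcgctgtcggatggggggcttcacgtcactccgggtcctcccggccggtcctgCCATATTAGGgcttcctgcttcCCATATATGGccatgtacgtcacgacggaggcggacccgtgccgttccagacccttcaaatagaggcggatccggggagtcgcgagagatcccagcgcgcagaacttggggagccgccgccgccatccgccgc

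The JUN promoter held TGACATCA at position -67 to -60, the JUND promoter TGACGTCA at -200 to -193, and the upstream of the ATF3 promoters TGACATCA at -123 to -116. TGACNTCA was thus present in 3 of 9 member promoters and in 7.72% of 35116 promoters of the same length. FOSL2 alone held TGANTCA, as TGACTCA at position 5 to 11 after its start, a motif in 7.71% of all promoters. EGR1 held CArG boxes at -105 to -96 and at -83 to -74 and an EGR1 site at -198 to -190. CArG boxes were found in 1.29% of all promoters and the EGR1 site in 9.43%. No 2 of these matches overlapped. TATAAA was found in 4 of the 9 member promoters, those of JUNB, FOS, FOSB and the downstream start of ATF3, against 11.5% of all promoters. The matches describe letters in a window and were not tested for binding. Sites outside the window were not searched, so a gene without a match here may carry the motif elsewhere. For ATF3 the start at 212781970 (hg19), shared by several NM entries, was not among the promoters read.

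In the libraries the 10 members differed widely in level, with IER3, FOSL1 and JUNB on top and FOSB, FOS and EGR1 near or below 1 FPKM. In A498 the order of mean levels was IER3, JUNB, FOSL1, ATF3, JUN, FOSL2, JUND, FOSB, FOS and EGR1, and no neighbours in this order overlapped over the 4 libraries. In 786-O it was FOSL1, IER3, JUNB, JUN, FOSL2, JUND, ATF3, EGR1, FOS and FOSB. There FOSL2 and JUND overlapped, as did EGR1 with FOS and FOS with FOSB. ATF3 stood above JUN, FOSL2 and JUND in A498 and below them in 786-O, and FOSL1 stood below IER3 and JUNB in A498 and above them in 786-O. Among the genes tested, 92.2% had a mean level at or below that of IER3, 90.8% at or below FOSL1 and 87.1% at or below JUNB.

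**Figure D1:**
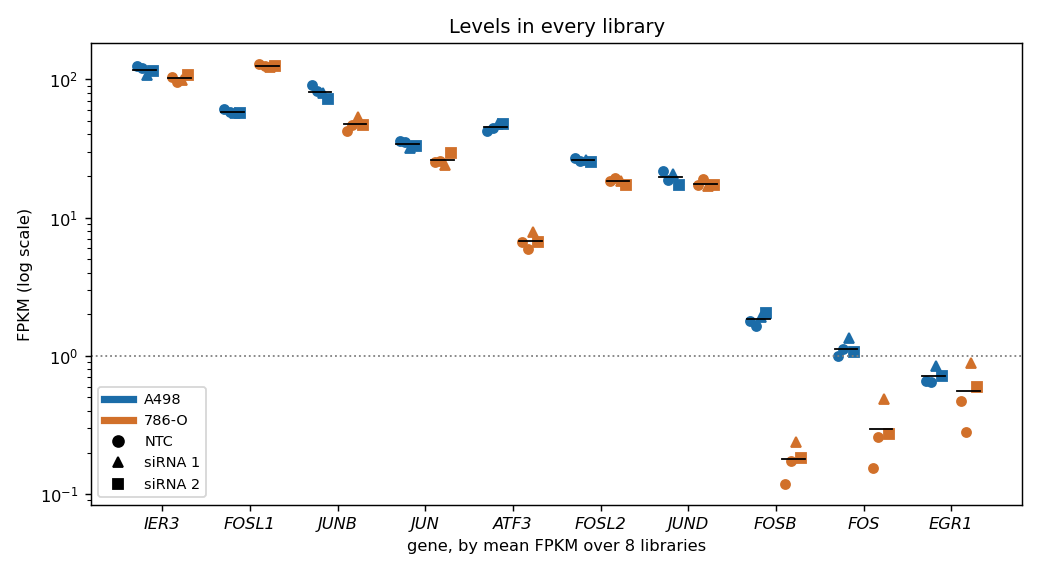
Level of each member in every library, in FPKM on a log scale, with genes ordered by mean over 8 libraries. Blue marks A498 and orange 786-O, circles are NTC, triangles siRNA 1 and squares siRNA 2, black bars are means of 4 libraries, and the dotted line is 1 FPKM. The lines stand clearly apart for ATF3 (45.5 against 6.76 FPKM on average) and FOSB (1.84 against 0.178), while JUND and EGR1 overlap.

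The first comparison set the 4 A498 libraries against the 4 of 786-O, with the transfection as a covariate and describes how the lines differ in these transcripts. FOSB and ATF3 were several-fold higher in A498, JUNB, FOSL2, JUN and IER3 were modestly higher there, and FOSL1 was higher in 786-O by 2.15-fold. Of the 8 members with a mean of at least 1 FPKM, 7 passed limma at an adjusted p of 0.05, 6 of them higher in A498 and 1 higher in 786-O. Over all 10503 genes tested 83.8% passed, 41.0% higher in A498 and 42.8% higher in 786-O, so that the number of members called is close to the share of genes in general. FOSB met the level filter through A498 alone, so its call is not independent of the filter. Of all 1033 genes let in by a single line, 1013 were called. Of the 7 members with a mean of at least 1 FPKM in each line 6 were called, against 82.2% of the 9470 such genes. The median log2 difference was 0.45 over the 8 members and -0.02 over all genes. The lines did not overlap for 8 of the 10 members, 7 with all A498 libraries above and FOSL1 with all below. Of all genes tested 77.3% did not overlap, 37.7% with A498 above and 39.6% with A498 below. FOS, which did not overlap, and EGR1, which did, lie below the level filter that this background used. In bulk samples fewer cells with a transcript and less of it per cell cannot be told apart.

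Among the Jun proteins, which can dimerise with one another as well as with Fos proteins, JUN (chromosome 1, 59246463 to 59249785, hg19) stood at 35.7 and 35.2 FPKM in the A498 NTC libraries, 32.0 with siRNA 1 and 32.8 with siRNA 2, and at 25.1 and 25.6 in the 786-O NTC libraries, 23.9 with siRNA 1 and 29.1 with siRNA 2. All A498 libraries were above all 786-O libraries, and the log2 difference was 0.39 (SE 0.056, limma adjusted p = 0.000146). JUNB (chromosome 19, 12902310 to 12904125), a weaker activator that can restrain JUN, stood at 91.3 and 82.8 FPKM in the A498 NTC libraries, 79.4 with siRNA 1 and 72.4 with siRNA 2, and at 42.4 and 46.7 in the 786-O NTC libraries, 53.6 with siRNA 1 and 46.4 with siRNA 2. Again the lines did not overlap, with the A498 NTC libraries highest of all, and the log2 difference was 0.78 (SE 0.077, limma adjusted p = 1.11e-05). JUND (chromosome 19, 18390563 to 18392432), the Jun protein of resting cells, stood at 21.7 and 18.7 FPKM in the A498 NTC libraries, 20.6 with siRNA 1 and 17.3 with siRNA 2, and at 17.3 and 19.0 in the 786-O NTC libraries, 17.0 with siRNA 1 and 17.2 with siRNA 2. The lines overlapped, and its log2 difference of 0.15 (SE 0.064, limma adjusted p = 0.0591) did not pass. It passed after scaling the libraries by the median ratio, at 0.20 (limma adjusted p = 0.0218), and at 0.19 when A498 NTC 2, A498 siRNA 2 or 786-O siRNA 2 was left out.

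The Fos proteins cannot pair with each other and need a Jun partner. FOSB (chromosome 19, 45971253 to 45978437) stood at 1.79 and 1.64 FPKM in the A498 NTC libraries, 1.90 with siRNA 1 and 2.04 with siRNA 2, and at 0.119 and 0.174 in the 786-O NTC libraries, 0.237 with siRNA 1 and 0.184 with siRNA 2. Every A498 library was several-fold above every 786-O library, the log2 difference was 2.81 (SE 0.115, limma adjusted p = 2.54e-08), and the ratio of the mean levels without a pseudocount was 10.3. The difference was 1.27 with a pseudocount of 1 FPKM and 3.33 with 0.01 FPKM, and the mean over the 8 libraries, 1.01 FPKM, was just inside the filter, which FOSB met through A498 alone (1.84 FPKM on average, against 0.178 in 786-O). Its test is therefore not independent of the filter. Its 2 NM entries lie at the same position, and Cufflinks divides the reads between them. NM_001114171, the transcript of the truncated deltaFosB protein, was between 1.26 and 2.04 FPKM in A498, and NM_006732, the full-length form, at 0.525 or less in every library. In the second 786-O NTC library alone NM_006732 held the larger part, 81.3% of the FOSB total.

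FOS (chromosome 14, 75745481 to 75748937), the classical Jun partner, stood at 1.00 and 1.12 FPKM in the A498 NTC libraries, 1.35 with siRNA 1 and 1.06 with siRNA 2, and at 0.155 and 0.261 in the 786-O NTC libraries, 0.489 with siRNA 1 and 0.272 with siRNA 2. The A498 libraries were all above the 786-O libraries. These values rest on 52 to 104 reads in A498 and 11 to 35 in 786-O, the lowest being the first 786-O NTC library with 11 reads (exact Poisson 95% interval 0.0773 to 0.277 FPKM, counting error only). FOS had a mean below 1 FPKM and so was not in the test across genes. Its log2 difference was 1.70 (exact two-sided permutation test over 70 arrangements, p = 0.0286, the smallest p this design allows).

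FOSL1 (Fra-1, chromosome 11, 65659692 to 65667997) stood at 60.7 and 58.3 FPKM in the A498 NTC libraries, 57.4 with siRNA 1 and 56.7 with siRNA 2, and at 128 and 125 in the 786-O NTC libraries, 123 with siRNA 1 and 125 with siRNA 2. It was the only member higher in 786-O, with a log2 difference of -1.10 (SE 0.033, limma adjusted p = 2.99e-09) and little spread among the 4 libraries of either line. FOSL2 (Fra-2, chromosome 2, 28615779 to 28637516) stood at 27.2 and 25.8 FPKM in the A498 NTC libraries, 26.0 with siRNA 1 and 25.2 with siRNA 2, and at 18.3 and 19.4 in the 786-O NTC libraries, 18.5 with siRNA 1 and 17.3 with siRNA 2. All A498 libraries were above all 786-O libraries, with a log2 difference of 0.50 (SE 0.040, limma adjusted p = 2.43e-06). Cufflinks gave the FOSL2 value of the A498 siRNA 2 library with the status FAIL, and the value does not stand apart from those of the line. FOSL2 was the only member whose locus overlapped another entry of the files, a noncoding RNA at 0.188 to 0.305 FPKM.

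**Figure D2:**
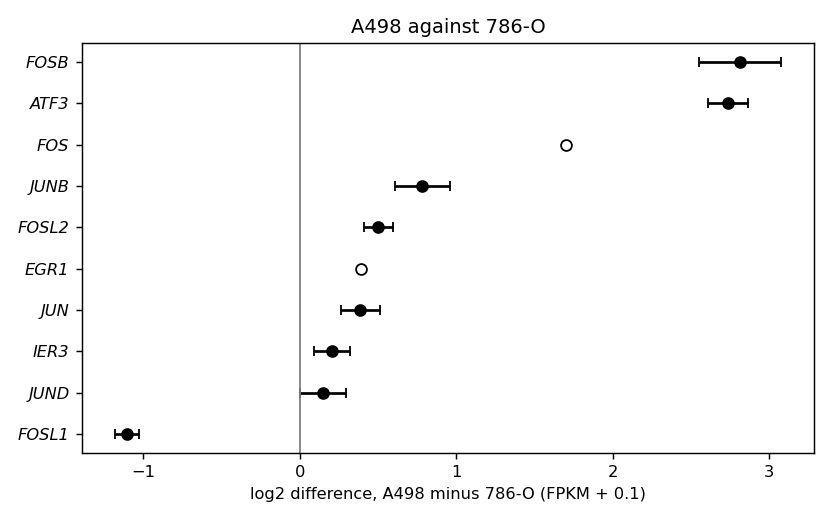
Log2 difference of FPKM + 0.1 between A498 and 786-O for each member, from 4 libraries a line with the transfection as a covariate. Filled points carry limma's 95% interval and open points (FOS, EGR1) lay below the filter and have none. FOSB at 2.81 and ATF3 at 2.74 lie farthest to the right and FOSL1 at -1.10 is the only point left of 0.

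ATF3 (chromosome 1, 212738676 to 212794119), a stress-induced leucine zipper protein that represses as a homodimer and activates with Jun, stood at 42.2 and 44.6 FPKM in the A498 NTC libraries, 47.7 with siRNA 1 and 47.5 with siRNA 2, and at 6.63 and 5.91 in the 786-O NTC libraries, 7.88 with siRNA 1 and 6.63 with siRNA 2. Every A498 library was far above every 786-O library. The log2 difference was 2.74 (SE 0.057, limma adjusted p = 3.24e-10), or 6.67-fold. ATF3 has 6 NM entries, of which 3 were near 0 in every library.

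Most of its signal came from NM_001030287, whose locus reaches the upstream start site. That entry stood at 29.7 and 34.1 FPKM in the A498 NTC libraries, 36.7 with siRNA 1 and 35.8 with siRNA 2, and at 4.51 and 4.50 in the 786-O NTC libraries, 3.68 with siRNA 1 and 5.35 with siRNA 2. The shorter NM_001206486 stood at 8.92 and 7.63 FPKM in the A498 NTC libraries, 8.02 with siRNA 1 and 8.33 with siRNA 2, and at 1.66 and 1.15 in the 786-O NTC libraries, 3.98 with siRNA 1 and 1.11 with siRNA 2. Both entries were higher in A498 in every library, so the line difference was seen on each. In 7 of the 8 libraries NM_001030287 held most of the ATF3 total, up to 80.8%. The exception was the 786-O siRNA 1 library, in which the entries were nearly level, with NM_001206486 at 50.4% of the total and NM_001030287 at 46.7%, and in which NM_001030287 was lower than in the other 786-O libraries. Cufflinks divides shared reads between these entries, and the split is less certain than the sum.

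**Figure D3:**
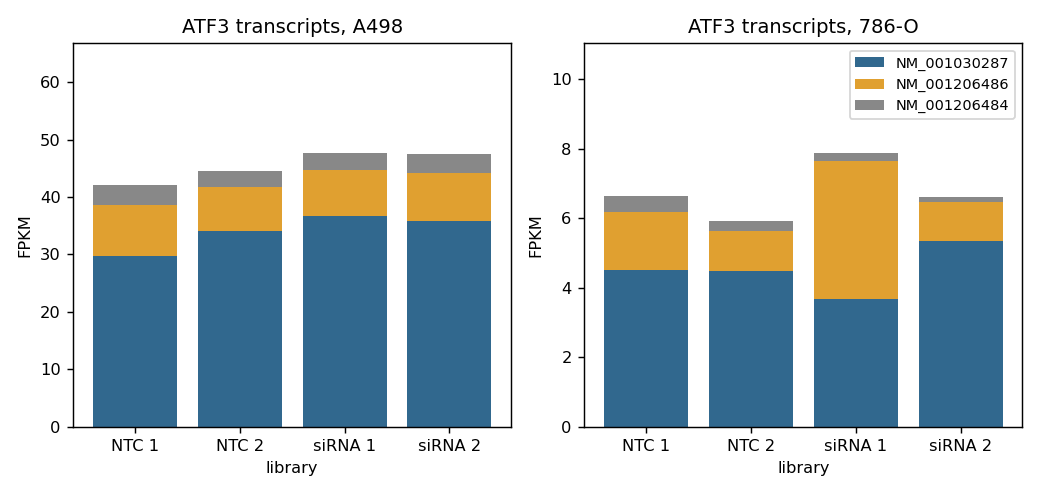
FPKM of the 3 ATF3 transcripts above 0.1 FPKM in every library, stacked by library for A498 (left) and 786-O (right), with separate vertical scales that start at 0. The totals lie between 42.2 and 47.7 FPKM in A498 and between 5.91 and 7.88 in 786-O, and the 786-O siRNA 1 library alone draws most of its total from NM_001206486.

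EGR1 (chromosome 5, 137801181 to 137805004), a zinc finger factor that serum response factor induces, stood at 0.654 and 0.651 FPKM in the A498 NTC libraries, 0.849 with siRNA 1 and 0.719 with siRNA 2, and at 0.469 and 0.279 in the 786-O NTC libraries, 0.894 with siRNA 1 and 0.594 with siRNA 2. The lines overlapped, since the 786-O siRNA 1 library was the highest of all 8 and the 786-O NTC libraries were the lowest. The reads behind these values numbered 50 to 102 a library. The log2 difference between lines was 0.39 (exact two-sided permutation test over 70 arrangements, p = 0.229). IER3 (chromosome 6, 30710976 to 30712327), an early response gene that modulates apoptosis and ERK signalling, stood at 125 and 122 FPKM in the A498 NTC libraries, 108 with siRNA 1 and 114 with siRNA 2, and at 104 and 95.8 in the 786-O NTC libraries, 99.6 with siRNA 1 and 107 with siRNA 2. All A498 libraries were above all 786-O libraries by a narrow margin, with a log2 difference of 0.20 (SE 0.050, limma adjusted p = 0.00444). Its 5 further entries on alternative haplotypes of the region were all listed at 0.

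The second question was whether depletion of SLINKY moved these factors. No member passed in either siRNA comparison, and the shifts were small for the abundant members and larger for the rare EGR1, FOS and FOSB. For siRNA 1 against NTC, 0 of 8 members tested passed limma, with adjusted p from 0.304 to 0.914, where 0.343% of all genes (36) passed. At an unadjusted p under 0.05 the comparison counted 1115 genes, among them 1 member, ATF3. For siRNA 2 against NTC, 0 of 8 passed, with adjusted p from 0.425 to 0.973, where 0.0286% of all genes (3) passed. At an unadjusted p under 0.05 there were 1420 genes and 0 members.

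The intervals of the differences show what sizes these libraries allow. For siRNA 1, ATF3 differed by 0.23 in log2 (SE 0.070, 95% interval 0.07 to 0.39, limma adjusted p = 0.304), with its levels above both NTC libraries in either line. Taken on the highest ATF3 entry of each library, whichever that was, the difference was 0.01. That entry was NM_001206486 in the 786-O siRNA 1 library and NM_001030287 elsewhere, so the value mixes transcripts. FOSB differed by 0.30 (95% interval -0.02 to 0.62), JUN by -0.11 (-0.27 to 0.04) and JUNB by 0.07 (-0.15 to 0.29). For FOSL1 the interval ran from -0.14 to 0.04, the narrowest of the members, for FOSL2 from -0.14 to 0.09, for IER3 from -0.24 to 0.04 and for JUND from -0.21 to 0.15.

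For siRNA 2 the largest differences among the 8 members tested were again in FOSB, at 0.23 (95% interval -0.09 to 0.55), and then in JUND, at -0.15 (-0.33 to 0.03). ATF3 differed by 0.11 (-0.05 to 0.27), JUNB by -0.10 (-0.32 to 0.12), FOSL2 by -0.10 (-0.21 to 0.01) and the other 3 by less than 0.05 in either direction. Set against each other, the siRNAs gave 0 members of 8 past the test, where 0.371% of all genes (39) passed and 980 genes and 0 members had an unadjusted p under 0.05. Of the 8, JUNB had the largest difference between the siRNAs, 0.17 (95% interval -0.08 to 0.42).

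EGR1 showed the widest excursions, on few reads. Against the NTC mean of its line, log2(FPKM + 0.1) was higher by 0.33 with siRNA 1 and 0.12 with siRNA 2 in A498, and by 1.07 and 0.55 in 786-O. Both siRNA libraries lay above both NTC libraries in either line, while the 786-O NTC libraries themselves differed by 0.59. Permuting NTC and siRNA libraries within lines gave a mean difference of 0.53 (exact two-sided permutation test over 36 arrangements, p = 0.0556, the smallest p this design allows). The permutation took both siRNAs together as a single condition. The exact Poisson 95% interval of the 786-O siRNA 1 value, 0.724 to 1.09 FPKM on 96 reads, did not meet those of the 786-O NTC values, 0.348 to 0.618 and 0.209 to 0.365. These intervals cover counting error only and not the spread between libraries, for which siRNA 1 has no second library in the line.

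FOS was higher by 0.319 with siRNA 1 in A498 and differed by -0.00058 with siRNA 2, and in 786-O it was higher by 0.94 and 0.27. In 786-O the siRNA 2 value of 0.272 FPKM was only slightly above the second NTC value of 0.261. The same permutation gave a mean difference of 0.39 (exact two-sided permutation test, p = 0.167). FOSB, like EGR1, had both siRNA libraries above both NTC libraries in either line, and FOSL1 had both below. The former pattern was found in 6.75% of the genes tested and in 5.15% of all genes above 0 in a library, the latter in 4.97% and 3.65%. In A498 but not 786-O both siRNA libraries were below both NTC libraries for JUN, JUNB and IER3 and above for ATF3. In 786-O but not A498 they were above for FOS and below for JUND. Within A498, 20.7% of the genes tested had both siRNA libraries above and 16.7% below, and within 786-O 19.0% and 13.8%. These shares count a gene whatever the other line did, so they include genes with the pattern in both lines.

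**Figure D4:**
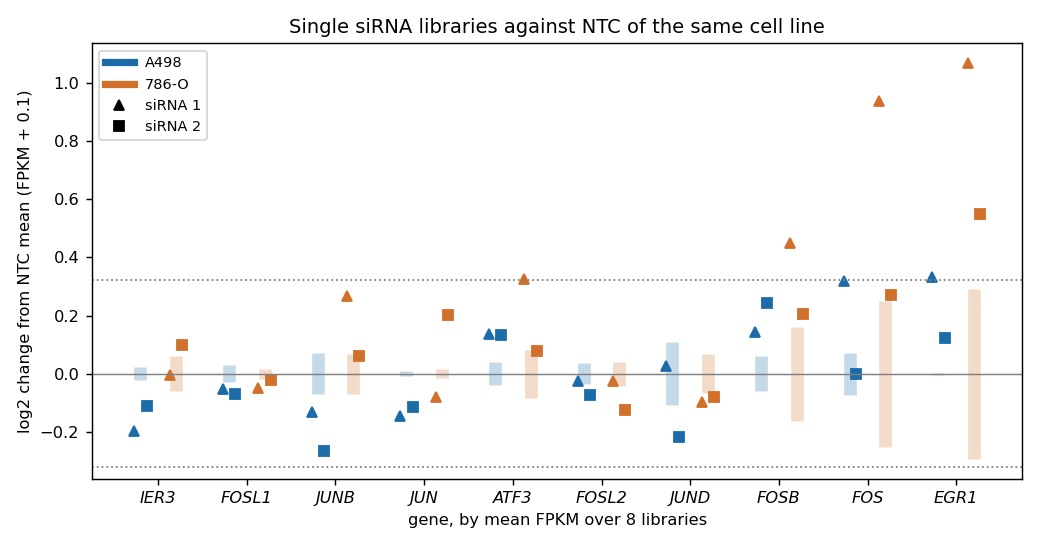
Log2 change of FPKM + 0.1 in each single siRNA library from its line's NTC mean, by member. Blue is A498 and orange 786-O, triangles are siRNA 1 and squares siRNA 2, shaded bars span the 2 NTC libraries around their mean, and dotted lines mark the fold threshold, 0.322 in either direction. Most points of the abundant genes at left lie within the dotted lines, and EGR1 and FOS with siRNA 1 in 786-O lie highest, at 1.07 and 0.94.

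Single libraries were also read against the fold threshold that the study applied to its transcriptome results. On this scale it is a log2 change of 0.322 in either direction. The siRNA 1 library of 786-O had 4 of 10 members past it, EGR1, FOS, FOSB (0.45) and ATF3 (0.325), all higher, where 5.91% of the genes tested were past it. FOS and EGR1 lie below the level filter that this background used. The siRNA 1 library of A498 and the siRNA 2 library of 786-O each had 1 member past it, EGR1, against 3.81% and 3.92% of the genes tested. The siRNA 2 library of A498 had 0, against 5.49%. Among the siRNA libraries, ATF3 with siRNA 1 in 786-O was the closest above the threshold. FOS with siRNA 1 in A498, at 0.319, was just short of it. Measured the same way, the second NTC library of 786-O differed from the first by this much for 3 members, FOS (0.50) and FOSB (0.32) higher and EGR1 (-0.59) lower, against 4.63% of genes, and the A498 NTC libraries for 0 members, against 4.67%. The FOS, FOSB and EGR1 among the 4 members past it in 786-O with siRNA 1 were thus also past it between the control libraries. There FOSB was only just past it, at 0.3223 against 0.3219, and EGR1 went in the opposite direction.

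The knockdown was also compared between lines, with both siRNAs taken as replicates. The siRNAs differ and each had 1 library a line, so the spread used also holds any difference between them. Of 8 members, 0 passed the interaction test, where 0.00952% of all genes (1) passed and 191 had an unadjusted p under 0.05. Among the 8 members tested, JUNB had the largest interaction, -0.36 (SE 0.128, 95% interval -0.65 to -0.07, limma adjusted p = 0.9998). JUNB was the 1 member with an unadjusted limma p under 0.05. Its levels with the siRNAs were below the NTC libraries in A498, and with siRNA 1 above them in 786-O.

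Around the 10 members, 5 lists of pathway genes were read in the same tests. Between the lines their counts stand beside the 83.8% of all genes tested that were called, 41.0% higher in A498 and 42.8% lower. A share of called genes near that background is no result about a list. Of 27 other immediate early genes 21 were tested, of which 13 were higher in A498, 7 lower and 1 was not called, with a median log2 difference of 0.40. The orphan nuclear receptor NR4A1 (2.82 against 0.318 FPKM on average, log2 2.82) and KLF4, an epithelial zinc finger factor (14.0 against 1.99, log2 2.76), were the most A498-biased. NR4A1 met the level filter through A498 alone, and without it 19 of 20 genes were called. The serum-induced kinase SGK1 (2.25 against 12.1, log2 -2.35) and the matricellular protein CCN1 (40.5 against 203 FPKM, log2 -2.32) were the most 786-O-biased.

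Of 23 other leucine zipper partners 19 were tested, 13 higher in A498, 3 lower and 3 not called (median 0.57), so that 16 of 19 were called, close to the 83.8% of all genes. BATF2 (5.71 against 0.0899 FPKM, log2 4.94) and BATF3 (17.6 against 1.19, log2 3.78), small partners of Jun proteins that lack an activation domain, led the A498 side. BATF2 met the filter through A498 alone, so its call and its place are not independent of the filter. Without it 15 of 18 were called. CREB5 (1.36 against 2.86, log2 -1.02) and ATF7 (7.59 against 10.0, log2 -0.39), which bind cyclic AMP response elements, led the other. The ATF7 call did not hold in the NTC libraries alone (-0.30, limma adjusted p = 0.0866) or on its highest entry (0.0890).

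Upstream, 24 kinases and serum response factor partners gave 21 tested genes, 7 higher in A498, 11 lower and 3 not called (median -0.12), all of them with a mean of at least 1 FPKM in each line. The p38 kinase MAPK11 (33.4 against 6.55 FPKM, log2 2.33) and the ERK kinase MAPK3 (32.4 against 12.4, log2 1.38) were higher in A498. ELK1, the ternary complex factor that joins serum response factor, was lower (4.71 against 11.5, log2 -1.28). MAPK8, the Jun kinase JNK1, was at -3.29 by its named NM entries, a call that did not hold in the NTC libraries alone (-0.56, limma adjusted p = 0.0756). Once all its NM entries were counted it was at -1.20, a smaller difference than that of ELK1.

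The MAPK8 values need this care. By its named NM entries it stood at 2.59 and 3.16 FPKM in the A498 NTC libraries, 0.00138 with siRNA 1 and 0.00194 with siRNA 2, and at 6.00 and 3.05 in the 786-O NTC libraries, 5.81 with siRNA 1 and 7.31 with siRNA 2. The 2 further NM entries at the same position carry no symbol in the table used, and with them MAPK8 stood at 2.77 and 3.17 FPKM in the A498 NTC libraries, 2.78 with siRNA 1 and 2.73 with siRNA 2, and at 6.50 and 6.09 in the 786-O NTC libraries, 6.86 with siRNA 1 and 7.31 with siRNA 2. Its interaction of -5.46 (SE 0.383, limma adjusted p = 0.00331) on the named entries, the single gene called in that comparison, became -0.27 (limma adjusted p = 0.9998). No member gained an entry in this way. The counts of every list between the lines did not change with it.

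Feedback regulators that switch the pathway off numbered 23, with 19 tested, 11 higher in A498, 5 lower and 3 not called (median 0.17). The MAP kinase phosphatase DUSP2 (2.91 against 0.134 FPKM, log2 3.72) and the Ras-ERK inhibitor SPRY4 (2.40 against 0.154, log2 3.31) were higher in A498, and DUSP7 (5.12 against 9.34, log2 -0.86) and SPRY2 (3.08 against 4.39, log2 -0.49) were lower. DUSP2 and SPRY4 met the filter through A498 alone, and without them 14 of 17 were called. Of 34 genes reported as AP-1 or EGR1 targets 30 were tested, 17 higher in A498, 10 lower and 3 not called (median 0.51). The chromatin protein HMGA1 (184 against 11.4 FPKM, log2 4.001) and the chemokine CCL2 (212 against 24.0, log2 3.17) were higher in A498. The EGF-family ligand EREG (0.108 against 17.2, log2 -6.37) and the protease urokinase, PLAU (1.75 against 64.2, log2 -5.12), were far higher in 786-O, the line with more FOSL1. Whether FOSL1 bears on them was not tested. EREG met the filter through 786-O alone, as 1 of 3 genes of the list let in by a single line, and without these 24 of 27 were called.

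**Figure D5:**
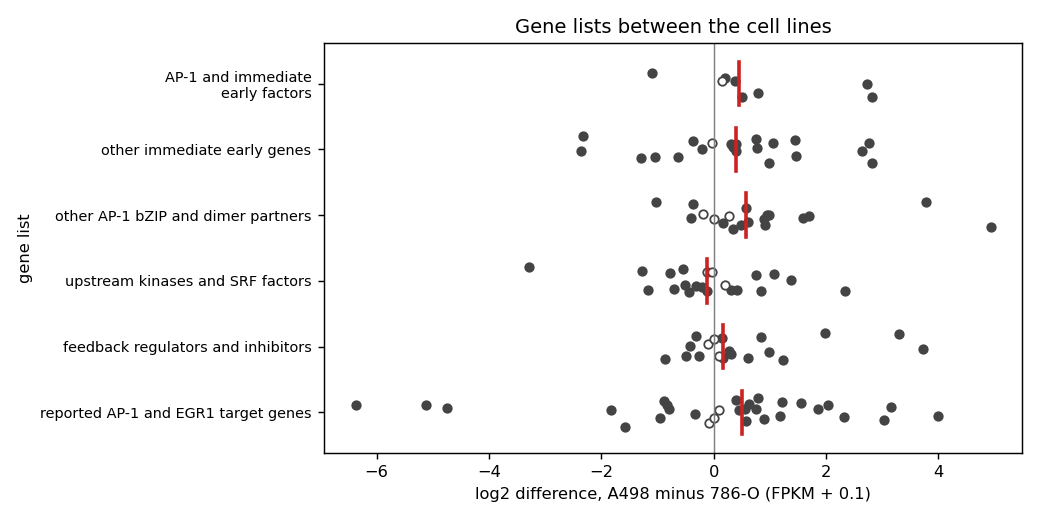
Log2 difference of FPKM + 0.1 between A498 and 786-O for the tested genes of the member list and 5 pathway lists. Each point is a gene, filled where limma's adjusted p was under 0.05, jittered vertically, and red bars are list medians. Every list has genes on either side of 0, with medians from -0.12 for the upstream kinases to 0.57 for the leucine zipper partners.

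With siRNA 1 against NTC, CCND1 (cyclin D1), which drives the G1 phase of the cell cycle, was the 1 list gene that passed, where 0.343% of all genes tested passed. It stood at 35.7 and 37.2 FPKM in the A498 NTC libraries, 28.5 with siRNA 1 and 35.6 with siRNA 2, and at 74.8 and 70.2 in the 786-O NTC libraries, 50.4 with siRNA 1 and 70.5 with siRNA 2. The siRNA 1 library was the lowest of its line in both lines and siRNA 2 was close to NTC, with a log2 difference of -0.44 (SE 0.054, limma adjusted p = 0.0177) and, against siRNA 2, of -0.40 (limma adjusted p = 0.0453). The call against NTC held under 10 of 20 alternatives (limma adjusted p from 0.0153 to 0.334) and was lost without A498 NTC 2, 786-O NTC 2 or 786-O siRNA 1, at 0.0654, 0.0613 and 0.334. The replicate block also ended it (limma adjusted p = 0.0512). The call between the siRNAs held under 5 of 16. MAP2K1, the ERK-activating kinase MEK1, stood at 12.2 and 12.4 FPKM in the A498 NTC libraries, 11.1 with siRNA 1 and 13.8 with siRNA 2, and at 20.0 and 20.2 in the 786-O NTC libraries, 17.9 with siRNA 1 and 23.1 with siRNA 2. It was lowest with siRNA 1 and highest with siRNA 2 in both lines, and passed between the siRNAs, at -0.34 (SE 0.052, limma adjusted p = 0.0453), a call that held under 5 of 16 alternatives (0.0376 to 0.448) and ended when any siRNA library was left out. In siRNA 2 against NTC 0 list genes passed, where 0.0286% of all genes tested passed.

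Lastly, the pattern of 4 members over the 8 libraries was set beside the list genes, as the Pearson correlation of log2 values centred within each line, over 119 genes. These are descriptions over few libraries, which differ in depth. ATF3 and EGR1 were like one another (r = 0.92), and so were FOS and FOSB (r = 0.84). EGR1 was closest to the phosphatase DUSP5 (r = 0.94) and also to SGK1 (r = 0.92), and ATF3 to KLF10 (r = 0.94) and MCL1 (r = 0.91). FOS was closest to IL6 (r = 0.89) and ELK1 (r = 0.83), and JUN to MAPK7 (r = 0.86) and AREG (r = 0.85). JUN with ATF3 gave r = -0.54. After ATF3 with EGR1 and FOS with FOSB, the highest pair of members was JUND with FOSL2 (r = 0.75). The lowest of all pairs was FOSB with FOSL1, at r = -0.70.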

How the data were processed

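RNA-seq was done on A498 and 786-O cells, 8 libraries in 6 groups by the labels. The authors mapped reads to hg19 and deposited, for each library on its own, FPKM values of 75378 entries with 95% bounds. The submitters' processing notes list TopHat2 2.0.0 and Cufflinks 2.0.2, and options are not given in the sources used here. FPKM is scaled within a library only, so composition can shift it.

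From the deposited files, 35951 NM entries (97.7% with a symbol in the RefSeq gene table) were summed per symbol to 18693 genes. Entries with the status FAIL (154 to 263 NM entries a library) were kept. The 10503 genes with a mean of at least 1 FPKM were tested with limma 3.58.1 in R 4.3.3 on log2(FPKM + 0.1), with a variance trend and Benjamini-Hochberg adjustment at 0.05. Cell line, siRNA 1 and siRNA 2 were terms of 1 additive model, and the interaction was fitted apart. Differences on this scale understate changes of low genes. FOS and EGR1, under the filter, were compared by an exact permutation test, chosen after their levels were seen. Their read numbers were recovered from the deposited bounds (16 of 16 values whole within 0.01), and depth from single-exon genes. Python 3.11.15 with numpy 2.4.6, pandas 2.3.3, scipy 1.17.1 and matplotlib 3.10.9 was used otherwise.

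The members and gene lists were chosen with earlier results of these data known. Named were all members, the 2 list genes with the largest called difference in each direction between lines, up to 3 called list genes in each siRNA comparison, and the 3 list genes most like JUN, FOS, EGR1 and ATF3, of which 1 is not reported here. Alternatives were the pseudocount, filter, scaling, entry choice, variance trend, replicate block, single lines and leaving out each library. The highest NM entry of a gene was taken in each library on its own, so it can be a different entry in different libraries.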

Additional observations from a re-analysis of the deposited data

Results flagged for a closer look

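Each member was checked for 1 library far from the other 3 of its line, 20 groups of 4 in all, and 1 stood out. In 786-O the second NTC library held the highest JUND level, 18.99 FPKM, against 17.31 in the nearest library, a gap of 0.834 of the whole range, above Dixon's 95% critical value for 4 values. Chance alone would mark about 1 group in 20. No member passed the interaction test between the lines, which took both siRNAs as replicates of the knockdown.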

How the results depend on the processing

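Between the lines, leaving out each library gave 8433 to 8749 genes called and 7 to 8 members, the addition being JUND. With the highest NM entry 6 members were called, since FOSB then lay under the filter. In the siRNA comparisons 0 members were called under every alternative run, while the numbers of genes called moved widely. For siRNA 1 (36 genes) they were 57 with a pseudocount of 1 FPKM, 1 without a filter, 2 with the highest NM entry, 8 with NR entries added, 8 without the variance trend, 98 in A498 alone and 0 in 786-O alone, and 3 to 32 leaving out a library. For siRNA 2 (3 genes) they were 0 without a filter, 1 with the highest NM entry, 1 without the trend, 155 in A498 alone, and 1 to 11 leaving out a library. Between the siRNAs (39 genes) they were 1 without a filter, 0 with the highest entry, 6 with NR entries, 12 without the trend, and 5 to 44 leaving out a library. For the interaction (1 gene, MAPK8) they were 0 with a pseudocount of 1 FPKM, 4 without a filter, 16 with NR entries, 0 once NM entries without a symbol were added at their locus, an alternative chosen after seeing the data, and 1 to 6 leaving out a library. The causes were not tested.

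In the labels the NTC libraries alone carry replicate numbers, and the block paired NTC 1 with NTC 1 and NTC 2 with NTC 2 across the lines. NTC 1 minus NTC 2 correlated at r = -0.26 across 10503 genes between the lines. Whether libraries of the same number share more than the number was not tested. The replicate block gave 18 genes for siRNA 1 and 1 for siRNA 2, and crossed numbers, chosen after seeing the data, gave 71 and 11.

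By the fold threshold, A498 siRNA 1 had 2 members past it against NTC 1 alone, 0 with a pseudocount of 1 FPKM and 2 with 0.01 FPKM. A498 siRNA 2 had 2 against NTC 1 alone, 786-O siRNA 1 had 1 with a pseudocount of 1 FPKM, and 786-O siRNA 2 had 2 against NTC 1 alone, 0 with 1 FPKM and 2 with 0.01 FPKM. The shares of all genes past the threshold given above hold for the main setting only. These counts therefore have no share beside them and show only that the member counts move.

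Of the values of single members under alternatives, 697 kept direction and, where the member was tested, side of the threshold. FOS and EGR1, not tested across genes, are counted among the 697. Without the filter FOS passed between the lines (limma adjusted p = 0.000219) and EGR1 did not (0.122). Of the tested members 5 values passed in addition (all JUND between lines). A further 31 changed sign, all of differences that were not called. For siRNA 1, JUNB was -0.13 and JUND 0.032 in A498 alone. For siRNA 2, JUN was -0.11 in A498 alone, and JUNB was 0.062 and IER3 0.10 in 786-O alone. Between the siRNAs, FOSB was -0.0030 with a pseudocount of 1 FPKM, FOSL1 0.00047 after median ratio scaling and ATF3 -0.19 with the highest entry. In the interaction, FOSB was 0.055 with a pseudocount of 1 FPKM and ATF3 0.15 with the highest entry. Leaving out a library, the siRNA 1 difference ran from -0.075 to 0.21 for JUNB and from -0.12 to 0.055 for JUND, the siRNA 2 difference from -0.10 to 0.19 for JUN and from -0.080 to 0.068 for IER3, and the difference between siRNAs from -0.088 to 0.23 for FOSB and from -0.030 to 0.018 for FOSL1. The interaction ran from -0.13 to 0.12 for JUND, -0.30 to 0.020 for FOSB, -0.053 to 0.0031 for FOSL1, -0.024 to 0.073 for FOSL2 and -0.19 to 0.055 for ATF3. Median ratio scaling moved the median line difference of all genes from -0.02 to 0.04. The 11 to 104 reads behind each FOS and EGR1 value limit their precision.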
